A study of Mus musculus with 3 samples.

Results

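Transcripts of 5 genes, Ifng, Tnf, Il2, Csf2 and Penk, were followed in single T cells from mouse tumors. The genes were chosen by name from the 14811 genes of the count table, and all 5 were in it. At least 1 UMI (unique molecular identifier, which stands for 1 captured RNA molecule) of any of them was found in 1772 of 5564 cells. The genes Ifng, Tnf, Il2 and Csf2 encode secreted effector cytokines of T cells. Penk encodes proenkephalin, a precursor of opioid peptides and not a cytokine, so it is named beside the cytokines and not among them.

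The cells came from B16F10, a mouse melanoma line grown under the skin. Mice received purified CD4 T cells (CD45.1) or CD8 T cells (CD45.2) on day 1 after tumor injection. On day 11 T cells bearing CD4, CD8 or both were sorted from the tumors of 10 mice, pooled, hashtagged and loaded as 1 pool of about 6200 cells, of which the 5′ ends of transcripts were read. All cells share this tumor and the label untreated, and strain and age are not given in the sources used here. Each cell carries the authors' annotation of an identity, a class and a number of 1 to 4, none of which the labels tie to a sorted population. Cells annotated Tdp held a UMI of both Cd4 and Cd8a. UMIs of Cd4 and of Cd8a or Cd8b1 were also found together in 42 cells of the Cd8 class and 143 of the Cd4 class. There were 313 Cd8-identity Tdp cells (median 4981 UMIs per cell), 2681 cells of the Cd8 class (4159), 93 Cd4-identity Tdp cells (4668) and 2477 cells of the Cd4 class (3478). A sign of doublets, at least 2 T cell receptor Trbv genes with 2 UMIs or more apiece, was found in 19.2%, 12.8%, 38.7% and 9.29% of these classes in that order. Cells with this sign were kept, and shares of cells with each gene were not recomputed without them. All cells come from 1 library of 26763131 UMIs, so no test across samples exists and the numbers are parts of 1 pool, not replicates. Intervals are exact 95% intervals for counting error only, and those on levels take UMIs as independent, which the concentration of UMIs in few cells shows they were not, so they are too narrow. Beside a count of 0 the limit given is 3 counts of the total.

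Cytokine transcripts are made in brief bursts after a T cell receptor meets its antigen, through the factors NFAT, AP-1 and NF-kappa B, and are then broken down quickly by proteins that bind AU-rich sequence in their 3′ ends. Interferon gamma (Ifng) acts on macrophages and tumor cells and raises antigen presentation, tumor necrosis factor (Tnf) drives inflammation and cell death, interleukin 2 (Il2) is a growth factor of T cells, and GM-CSF (Csf2) acts on myeloid cells. T cells that make several of these at once are called polyfunctional, and enkephalins made from Penk act on opioid receptors.

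In RefSeq (GRCm38.p6) the genes lie at chr10:118441046-118445894 (Ifng), chr17:35199367-35202007 (Tnf), chr3:37120713-37125954 (Il2), chr11:54247270-54249899 (Csf2) and chr4:4133536-4138815 (Penk). The stretches just upstream of the gene starts are shown because the inducing factors act there. A further reason is that 2 or more of the 4 cytokine genes shared a cell somewhat more often than expected, though seldom (298 of 5564 cells, against 245 expected). RefSeq windows of that build were matched for 4 of the 5 genes, all but Penk. Printed 5′ to 3′ on the strand of the gene, the 250 bases lie at chr10:118440796-118441045 (plus strand) for Ifng, chr17:35202008-35202257 (minus strand) for Tnf, chr3:37125955-37126204 (minus strand) for Il2 and chr11:54249900-54250149 (minus strand) for Csf2. Capitals mark every match, on either strand, to any of 5 motifs. The NFAT and Ets core is GGAAA, the AP-1 motif is TGANTCA, the cyclic AMP response element is TGACGTCA and the TATA box is TATAAA. The kappa B motif is a run of guanines, a spacer of any bases and then a pair of cytosines.
Ifng: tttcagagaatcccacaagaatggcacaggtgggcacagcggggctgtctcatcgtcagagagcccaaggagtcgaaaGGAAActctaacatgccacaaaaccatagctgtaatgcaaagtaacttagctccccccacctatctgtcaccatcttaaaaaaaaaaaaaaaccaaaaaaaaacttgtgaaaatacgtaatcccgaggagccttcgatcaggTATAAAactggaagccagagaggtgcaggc
Tnf: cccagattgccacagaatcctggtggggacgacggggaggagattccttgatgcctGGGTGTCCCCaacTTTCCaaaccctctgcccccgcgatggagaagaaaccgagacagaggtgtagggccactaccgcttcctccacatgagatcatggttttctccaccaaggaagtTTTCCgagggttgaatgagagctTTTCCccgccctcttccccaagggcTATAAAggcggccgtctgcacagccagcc
Il2: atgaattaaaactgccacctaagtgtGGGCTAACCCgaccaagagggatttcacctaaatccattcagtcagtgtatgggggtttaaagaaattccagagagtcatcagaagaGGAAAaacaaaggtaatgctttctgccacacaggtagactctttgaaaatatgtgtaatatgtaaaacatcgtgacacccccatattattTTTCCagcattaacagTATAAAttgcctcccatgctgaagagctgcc
Csf2: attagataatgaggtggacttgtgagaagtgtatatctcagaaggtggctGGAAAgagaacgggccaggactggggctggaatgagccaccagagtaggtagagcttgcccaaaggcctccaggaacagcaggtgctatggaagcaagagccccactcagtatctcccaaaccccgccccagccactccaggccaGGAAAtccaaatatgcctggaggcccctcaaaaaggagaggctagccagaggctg

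GGAAA was found in all 4 windows, starting at base -172 from the gene start in Ifng, at -181, -77 and -54 in Tnf, at -137 and -47 in Il2 and at -200 and -55 in Csf2. That core is common, since 55.6% of 32851 promoter windows of this length hold it. The window of Tnf held the kappa B motif at -194 and that of Il2 at -224, a motif found in 45.8% of all windows. TATAAA lay at -30 in Ifng, -29 in Tnf and -31 in Il2 and was not in the window of Csf2, against 12.4% of all windows with a match. TGANTCA (6.75% of windows) and TGACGTCA (1.55%) were in none of the 4. No marked stretch overlapped another, and a match of letters is not a bound site.

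Ifng was the gene found in the most cells, 879 of 5564, with 2260 UMIs in all. It was found in 26.2% of Cd8-identity Tdp cells (82 of 313, interval 21.4 to 31.4), 15.5% of the Cd8 class (416 of 2681, 14.2 to 16.9), 17.2% of Cd4-identity Tdp cells (16 of 93, 10.2 to 26.4) and 14.7% of the Cd4 class (365 of 2477, 13.4 to 16.2). The share was highest in Cd8-identity Tdp cells, whose interval did not overlap that of the Cd8 class. Those cells are also deeper, and with each cell thinned to 2000 UMIs the shares were 13.3% (9.69 to 17.6), 8.20% (7.15 to 9.35), 6.74% (2.51 to 14.1) and 9.09% (7.93 to 10.4) in the same order, still without overlap between Cd8-identity Tdp and the Cd8 class. By annotated number, 21.3%, 19.4%, 31.7% and 32.5% of Cd8-identity Tdp cells held Ifng in numbers 1 to 4, against 15.5%, 15.9%, 14.6% and 16.2% of the Cd8 class. The intervals left each other out in number 3 (18.1 to 48.1, against 12.4 to 17.2) and in number 4 (24.1 to 41.8, against 13.3 to 19.4), and overlapped in numbers 1 and 2. Thinned, only number 4 kept apart, at 18.4% (11.8 to 26.8) against 8.29% (6.11 to 10.9). Number 3, with median depths of 6095 and 4430 UMIs, overlapped at 12.2% (4.08 to 26.2) against 6.97% (5.34 to 8.92). Number 1 overlapped at 10.6% (3.55 to 23.1) against 7.39% (4.88 to 10.6). In number 2 the order turned, at 9.35% (4.57 to 16.5) against 9.83% (7.82 to 12.2). Number 4 held 114 of the 309 thinned Cd8-identity Tdp cells and 543 of the 2500 of the Cd8 class.

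Tnf was found in 759 cells with 1222 UMIs, and here the Cd4 identity had the larger shares. They were 12.1% of Cd8-identity Tdp cells (8.74 to 16.3), 10.7% of the Cd8 class (9.52 to 11.9), 16.1% of Cd4-identity Tdp cells (9.32 to 25.2) and 17.0% of the Cd4 class (15.5 to 18.5). Thinned, they were 4.53%, 4.88%, 8.99% and 8.60%, and the Cd8 class (4.07 to 5.80) and the Cd4 class (7.47 to 9.83) did not overlap. Within the Tdp cells and between each Tdp class and its own single class, the intervals overlapped.

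Il2 was found in 343 cells with 743 UMIs, at much the same share in every class. It was found in 5.75% of Cd8-identity Tdp cells (3.44 to 8.94), 6.34% of the Cd8 class (5.45 to 7.33), 6.45% of Cd4-identity Tdp cells (2.40 to 13.5) and 6.02% of the Cd4 class (5.11 to 7.03), and all these intervals overlapped. Numbers 1 to 4 were also alike, at 6.08%, 6.11%, 6.43% and 6.10% of all cells.

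Csf2 and Penk were rare. Csf2 was found in 65 cells with 447 UMIs, namely in 1 of 313 Cd8-identity Tdp cells (0.319%, 0.00809 to 1.77), 28 cells of the Cd8 class (1.04%, 0.695 to 1.51), 0 of 93 Cd4-identity Tdp cells, which allows a share of up to 3.23%, and 36 cells of the Cd4 class (1.45%, 1.02 to 2.01). Penk was found in 105 cells with 1254 UMIs, in 1.92% of Cd8-identity Tdp cells (0.707 to 4.13), 1.12% of the Cd8 class (0.756 to 1.59), 1.08% of Cd4-identity Tdp cells (1 cell, 0.0272 to 5.85) and 2.75% of the Cd4 class (2.14 to 3.47). Penk was thus found in a larger share of the Cd4 class than of the Cd8 class, and thinned the shares were 1.56% (1.09 to 2.16) in the Cd4 class and 0.600% (0.336 to 0.988) in the Cd8 class. Number 1 held 32 of the 65 Csf2 cells and 48 of the 105 Penk cells, with shares of 2.01% and 3.01% of its cells, where the highest share in the other numbers was 0.987% for Csf2 and 1.67% for Penk.

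**Figure D1:**
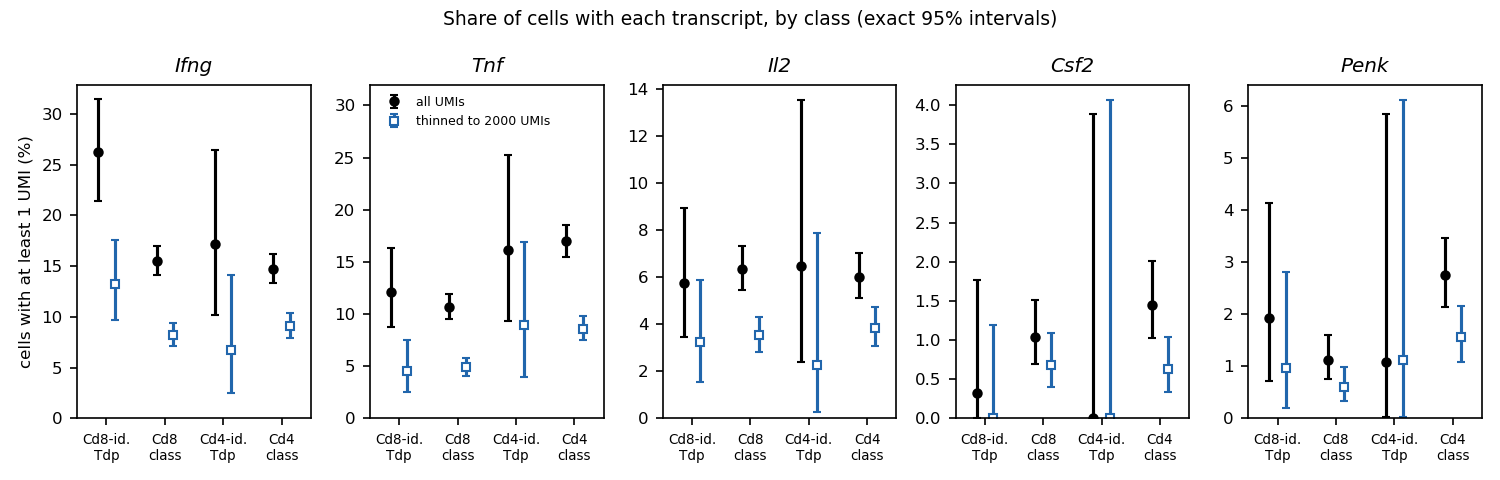
Share of cells with at least 1 UMI of each gene (vertical axis, percent) in the 4 classes (horizontal axis), from all UMIs (filled circles) and after thinning each cell to 2000 UMIs (open squares), with exact 95% intervals. Ifng stands highest in Cd8-identity Tdp cells (26.2%, and 13.3% thinned), Tnf is higher in the Cd4 class (17.0%) than in the Cd8 class (10.7%), and Il2 lies between 5.75% and 6.45% in all 4 classes.

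Free RNA in droplets can give UMIs to cells that do not express a gene. Among cells with 2 or more macrophage or monocyte UMIs but none of 6 T cell genes, 100 in all (97 in the Cd8 class, median 7214 UMIs), Ifng was found in 4% (1.10 to 9.93), Il2 in 1%, Penk in 1% and Csf2 in 0, which allows a share of up to 3%. These shares lie below the 15.8% and 6.16% of all 5564 cells with Ifng and Il2 (median 3869 UMIs). For Penk (1.89% of all cells) and Csf2 (1.17%) the intervals overlap, so at this depth the shares of these genes over all cells, given above, did not stand above this background. The same limit applies to the shares of Penk and Csf2 in classes and states. Tnf was found in 16% of these cells (9.43 to 24.7), and macrophages make it too, so Tnf shares are not read as expression by T cells alone. All 6 T cell genes were measured in every class, with summed levels between 4413 and 4999 CPM. The 10 macrophage or monocyte genes summed to 404 CPM among Cd8-identity Tdp cells and 1125 CPM over the Cd8 class. Their sum was 78.6 CPM among Cd4-identity Tdp cells and 510 CPM over the Cd4 class, with Csf1r, C1qb and Ms4a7 at 0 in Cd4-identity Tdp.

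Most cells held a gene at a single UMI, and a few held it at very high counts. Cells with exactly 1 UMI were 70.4% of the cells with Ifng, 75.8% of those with Tnf, 85.4% of those with Il2, 66.2% of those with Csf2 and 52.4% of those with Penk. At the other end, 17 cells had 10 or more Ifng UMIs, 9 had 10 or more of Tnf, 6 of Il2, 7 of Csf2 and 18 of Penk. Those cells held 43.0% of all Ifng UMIs, 14.9% of Tnf, 46.8% of Il2, 75.2% of Csf2 and 86.6% of Penk. The highest single cell held 365 Ifng UMIs, 42 of Tnf, 107 of Il2, 183 of Csf2 or 286 of Penk.

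**Figure D2:**
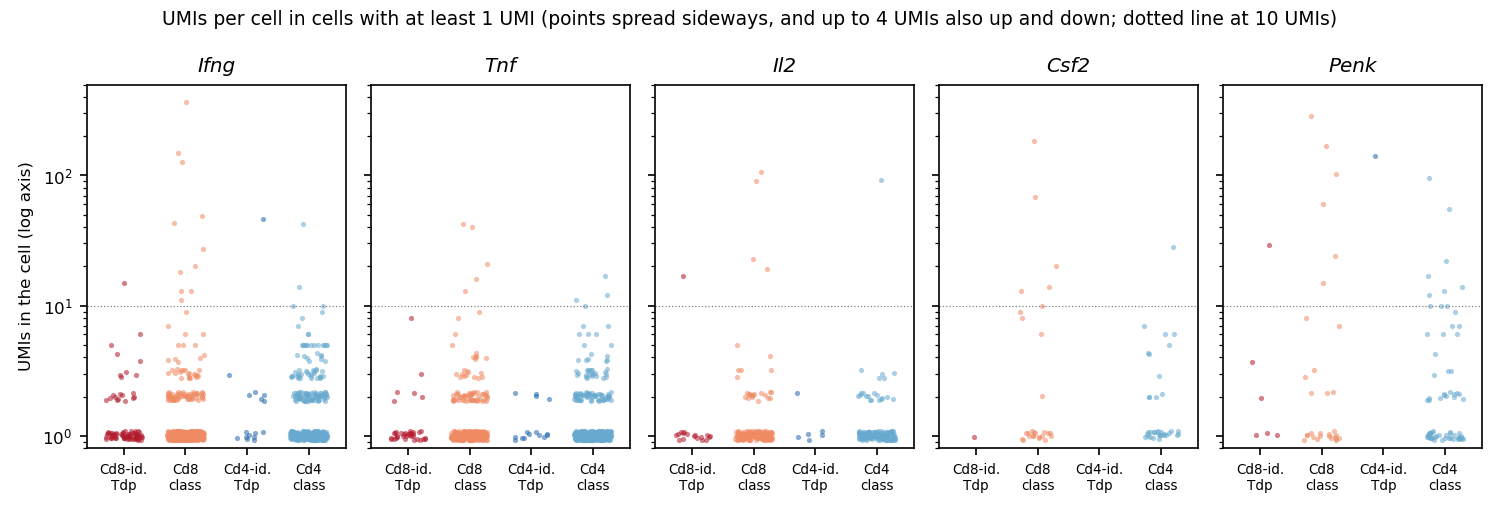
UMIs per cell (vertical axis, log scale) of each gene in every cell with at least 1 UMI, by class (horizontal axis). Most points lie at 1 UMI, while 17 cells for Ifng, 9 for Tnf, 6 for Il2, 7 for Csf2 and 18 for Penk lie at or above the dotted line at 10 UMIs.

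The 10 highest cells held 39.2% of the UMIs of Ifng, 15.6% of Tnf, 48.9% of Il2, 80.5% of Csf2 and 78.5% of Penk. Over the 9624 genes with at least 100 UMIs the median share was 4.33%, and 47 genes (0.488%) reached 50% or more, Csf2 and Penk among them. The count of cells that together held 50% of the UMIs was 2 for Csf2, 4 for Penk, 13 for Il2, 45 for Ifng and 166 for Tnf, against a median of 256.5 cells over all genes. Variance over mean of the counts per cell was 128 for Penk, 89.8 for Csf2, 81.5 for Ifng, 39.9 for Il2 and 5.48 for Tnf, against a median of 1.15. Only 5 of the 9624 genes exceeded Penk and 8 exceeded Csf2 in this measure, while 319 exceeded Tnf. Tnf was therefore the most evenly spread of the 5, though still more uneven than the median gene.

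**Figure D3:**
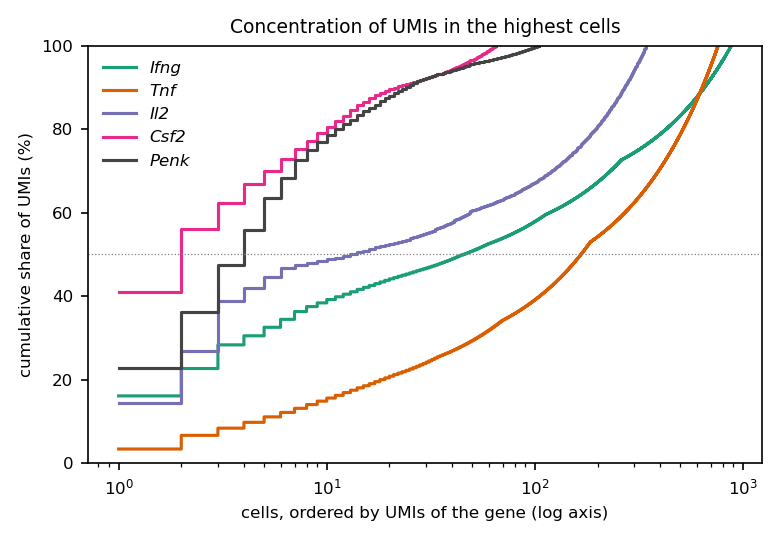
Cumulative share of each gene's UMIs (vertical axis, percent) over cells ordered by their UMIs of that gene (horizontal axis, log scale). Csf2 passes 50% (dotted line) with 2 cells and Penk with 4, while Il2, Ifng and Tnf need 13, 45 and 166 cells.

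The concentration differed between the classes for Ifng. The 10 highest cells held 59.2% of the Ifng UMIs of the Cd8 class (56.6 to 61.8) and 17.5% of those of the Cd4 class (14.7 to 20.6), and the single highest cell held 26.2% and 6.28%. For Tnf the 10 highest held 31.1% in the Cd8 class and 13.9% in the Cd4 class, for Il2 59.5% and 43.4%, and for Penk 96.7% and 69.3%. The first 50% of the Ifng UMIs lay in 5 cells of the Cd8 class and in 80 cells of the Cd4 class, at near-equal shares of cells with Ifng.

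Cells with at least 10 UMIs of any of the 5 genes numbered 39, of which 2 were Cd8-identity Tdp, 18 belonged to the Cd8 class, 2 were Cd4-identity Tdp and 17 belonged to the Cd4 class. They were 0.639%, 0.671%, 2.15% and 0.686% of those classes, and 1.00%, 0.576%, 0.626% and 0.539% of the cells with numbers 1 to 4. Their median was 8598 UMIs, against 3857 in all other cells, and 30 of the 39 held 2 or more of the 5 genes. None had a UMI of the 10 macrophage or monocyte genes. A sign of doublets, 2 different T cell receptor Trbv genes with 2 UMIs or more apiece, was found in 12 of them (30.8%), against 11.9% of the other cells, and the part of doublets in these cells was not tested.

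The highest cells fell into a few kinds by which genes they held. The cell with most Ifng, in the Cd8 class, had 365 UMIs of it (5.90% of its 6190 UMIs) with 4 of Tnf and 23 of Il2, beside 117 of Ccl3, 136 of Ccl4 and 145 of Xcl1, chemokines of activated T cells. Another cell of the Cd8 class held all 4 cytokines, with 128 UMIs of Ifng, 42 of Tnf, 90 of Il2 and 8 of Csf2, and 641 of Ccl4 and 407 of Xcl1. A further Cd8 class cell, with 7 Cd4 UMIs and none of Cd8a or Cd8b1, also held all 4, with 107 of Il2, 40 of Tnf, 20 of Csf2 and 18 of Ifng. These are cells with several cytokines at high counts at once.

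Csf2 was highest in a Cd8 class cell with 183 UMIs of it, 148 of Ifng and 60 of Penk, beside 164 of Ccl1 and 30 of Il3, and next in a cell with 68 of Csf2, 20 of Ifng and 7 of Penk. The 4 cells with most Penk had 5 or fewer UMIs of Ifng. The cell with 286 Penk UMIs had 9 of Csf2, 2 of Tnf and 0 of Ifng, the cell with 168 had 13 of Csf2, 2 of Tnf and 101 of Lta (lymphotoxin alpha), and the cell with 142, the only Cd4-identity Tdp cell with Penk, had none of the 4 cytokines. Of the 18 cells with 10 or more Penk UMIs, 6 held Ifng, 8 Tnf, 2 Il2 and 7 Csf2, while 17 held Tnfrsf9, the co-stimulatory receptor 4-1BB, and 6 held Foxp3, the factor of regulatory T cells.

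Some of the high cells of the Cd8 class went against its name. Among its 2681 cells, 29 (1.08%) held Cd4 UMIs and none of Cd8a or Cd8b1, a split made after the values were seen. These 29 cells included 9 of the 18 high cells. They held 90.3% of the Penk UMIs of the class, 72.6% of Csf2, 31.6% of Il2, 17.0% of Tnf and 16.7% of Ifng. Csf2 was found in 24.1% of them (7 cells, 10.3 to 43.5), against 0.749% of the 2271 Cd8 class cells with Cd8a or Cd8b1 and without Cd4 (0.437 to 1.20), and Penk in 17.2% (5.85 to 35.8) against 0.969% (0.608 to 1.46). Thinned to 2000 UMIs, the shares were 25.0% against 0.413% for Csf2 and 17.9% against 0.459% for Penk. The 29 cells also stood above the 1427 Cd4 class cells with Cd4 and without Cd8a or Cd8b1. Those held Csf2 in 1.89% (1.25 to 2.74) and Penk in 2.94% (2.13 to 3.96), or 0.600% and 1.28% thinned.

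Lineage genes of these 29 cells were also read. Cd40lg, the CD40 ligand of helper T cells, was found in 55.2% of them (35.7 to 73.6), against 7.49% of the cells with Cd8 UMIs only (6.44 to 8.65). Zbtb7b, the CD4 lineage factor ThPOK, was found in 27.6% (12.7 to 47.2), against 4.40% (3.6 to 5.33), while Runx3, the CD8 lineage factor, was found in 27.6% (12.7 to 47.2), against 54.9% (52.8 to 57.0). Cd3e was found in 28 of the 29, none held 2 UMIs of other cell types, and 2 had 2 Trbv genes. Number 1 held 18 of the 29. Their Cd4 count had a median of 2 UMIs, and how the authors assigned them to the Cd8 class was not given in the sources used here. Some values of the Cd8 class are given below without these 29 cells, and not every value was recomputed that way. Without them Ifng was found in 15.3% of the Cd8 class, Tnf in 10.5%, Il2 in 6.22%, Csf2 in 0.792% and Penk in 0.943%, and the 10 highest cells held 55.4% of its Ifng UMIs.

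Levels were set side by side as CPM, UMIs of a gene scaled to the same total of UMIs, over the summed cells of a class. A gene was called different when the ratio was at least 1.5-fold and its interval left out 1, among genes with at least 20 UMIs over both classes, which is a rule of size and not a test. In the first comparison, Cd8-identity Tdp against the Cd8 class, Ifng stood at 69.7 CPM (131 UMIs, 58.2 to 82.7) against 103 CPM (1392 UMIs, 97.6 to 108), which is 1.48-fold lower (1.23 to 1.78) and not called. Without the highest cell of each class Ifng stood at 61.8 CPM against 76.0 CPM. Over 20 alternatives its log2 ratio ran from -0.80 to 0.10, and it stayed not called in 14. Tnf stood at 27.1 CPM against 39.0 CPM, 1.44-fold lower (1.08 to 1.96), also not called. By number the order of the Ifng levels was not the same throughout. In number 3 the levels were 62.0 CPM in Cd8-identity Tdp against 56.0 CPM, and in number 4 they were 100.4 CPM against 167 CPM, or 77.5 CPM against 41.3 CPM without the highest cell of each class.

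Il2, Csf2 and Penk were called lower in Cd8-identity Tdp cells, where 4.6% of 11043 genes were called lower and 2.07% higher. Il2 stood at 18.1 CPM (34 UMIs) against 32.3 CPM (437 UMIs), 1.79-fold lower (1.26 to 2.61). Csf2 had 1 UMI (0.532 CPM) against 351 (26.0 CPM), a ratio of 48.8 with a counting interval of 8.70 to 1933. Penk stood at 20.2 CPM (38 UMIs, 29 of them in 1 cell) against 51.8 CPM (700 UMIs), 2.56-fold lower (1.85 to 3.65). Without the 29 Cd8 class cells described above, Csf2 was still called lower (log2 ratio -1.14, against -2.48 with them), Il2 was no longer called (-0.25, against -0.69), and Penk was called higher (1.32, against -1.17).

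Cd4-identity Tdp cells, set against the Cd4 class, rest on 93 cells. Ifng stood at 119 CPM (68 UMIs) against 62.5 CPM (669 UMIs), 1.90-fold higher (1.46 to 2.44), and Penk at 248 CPM (142 UMIs) against 34.96 CPM (374 UMIs), 7.10-fold higher (5.81 to 8.63). Both were called higher, where 2.2% of 10606 genes were. But 46 of the 68 Ifng UMIs and all 142 Penk UMIs lay in 1 cell each, and the cell with Penk had 2 Trbv genes. Without the highest cell of each class Ifng stood at 39.0 CPM against 58.7 CPM, and Penk at 0 against 26.0 CPM.

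Tnf and Csf2 were called lower in Cd4-identity Tdp cells, where 2.92% of genes were. Tnf stood at 33.2 CPM (19 UMIs) against 58.3 CPM (624 UMIs), 1.76-fold lower (1.12 to 2.94). Csf2 had no UMI against 95 (8.88 CPM), 1.69-fold lower with the class taken at 3 counts over all its cells. The exact interval of the ratio reached down to 1.35-fold lower. Of those 95 UMIs, 28 lay in 1 cell of the Cd4 class, and without the highest cell Csf2 was not called. Over 20 alternatives the call was kept in 13 for Csf2 and in 15 for Tnf. Il2 stood at 12.2 CPM (7 UMIs) against 24.8 CPM (265 UMIs), 2.03-fold lower (0.969 to 5.09), and was not called.

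Between the Tdp cells of Cd8 and of Cd4 identity, 4 genes could be measured, and Csf2 had 1 and 0 UMIs. Ifng was called lower in the Cd8-identity cells (69.7 against 119 CPM, 1.71-fold, 1.25 to 2.30) and so was Penk (20.2 against 248 CPM, 12.3-fold, 8.53 to 18.1), where 3.09% of 8122 genes were called lower and 3.96% higher. Both rest on the 2 Cd4-identity cells named above, and without the highest cell of each class neither was called, with Ifng at 61.8 against 39.0 CPM and Penk at 4.81 against 0 CPM. Tnf (27.1 against 33.2 CPM, ratio 0.817, 0.474 to 1.47) and Il2 (18.1 against 12.2 CPM, ratio 1.48, 0.645 to 3.95) had intervals that included 1.

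Between the single classes, Ifng was called higher in the Cd8 class (103 against 62.5 CPM, 1.65-fold, 1.5 to 1.81) and so was Csf2 (26.0 against 8.88 CPM, 2.92-fold, 2.32 to 3.71), where 8.21% of 11649 genes were called higher and 6.58% lower. Tnf stood 1.49-fold lower (39.0 against 58.3 CPM, 1.33 to 1.68), Il2 1.30-fold higher (32.3 against 24.8 CPM, 1.12 to 1.53) and Penk 1.48-fold higher (51.8 against 34.96 CPM, 1.30 to 1.68), each short of the 1.5-fold line. Without the 29 Cd8 class cells the order changed. Tnf and Penk were then called lower in the Cd8 class (log2 ratios of -0.74 and -1.98), and Ifng (0.45), Il2 (-0.12) and Csf2 (-0.19) were not called. Without the highest cell of each class Ifng stood at 76.0 CPM in the Cd8 class against 58.7 CPM in the Cd4 class and was not called either, while Tnf was called lower (log2 ratio -0.59) and Il2 higher (0.47).

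**Figure D4:**
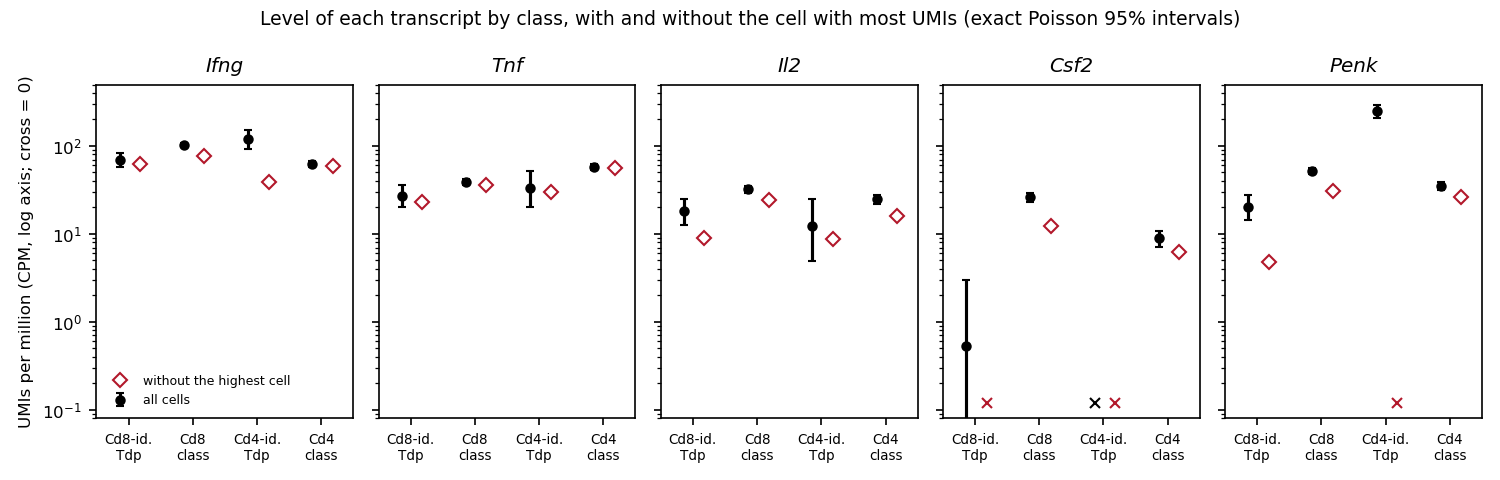
Level of each gene in the 4 classes (vertical axis, CPM on a log scale) over all cells (filled circles, exact Poisson 95% intervals) and without the 1 cell with most UMIs of the gene in that class (open diamonds), with crosses for a level of 0. Leaving out 1 cell takes Ifng in Cd4-identity Tdp cells to 39.0 CPM in place of 119 CPM, and Penk there to 0 in place of 248 CPM.

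The levels by number show the same single cells. In the Cd8 class Ifng stood at 54.6, 137, 56.0 and 167 CPM in numbers 1 to 4, and without the highest cell of each number at 46.2, 99.0, 45.4 and 41.3 CPM. Penk stood there at 227, 18.6, 9.37 and 36.4 CPM, with 478 of its 700 UMIs in number 1. In the Cd4 class Ifng was more even, at 64.5, 57.3, 57.3 and 68.0 CPM, and so was Tnf, at 60.3, 58.7, 44.9 and 57.7 CPM.

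Polyfunctional cells were read from co-detection. Of the 4 cytokines, 3850 cells held none, 1416 held 1, 269 held 2, 24 held 3 and 5 held all 4. Cells with 2 or more were 298 in all (5.36%, 4.78 to 5.98), where independent detection within 10 groups of cells by depth would give 245, a ratio of 1.22. Thinned to 2000 UMIs, 94 of 5143 cells (1.83%) held 2 or more, against 61.6 expected, a ratio of 1.53. With at least 2 UMIs of each gene, 49 cells did, against 19.5 expected within those depth groups, a ratio of 2.52. Cells with 3 or more cytokines numbered 29, against 13.0 expected.

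By class, 2 or more cytokines were found in 7.03% of Cd8-identity Tdp cells (22 cells, 4.46 to 10.4), 4.51% of the Cd8 class (121, 3.76 to 5.37), 6.45% of Cd4-identity Tdp cells (6, 2.40 to 13.5) and 6.02% of the Cd4 class (149, 5.11 to 7.03). Thinned, the counts were 2 of 309, 43 of 2500, 0 of 89 and 49 of 2245 cells. In the Cd8 class the 43 cells stood against 23.3 expected (ratio 1.84), or 37 of 2472 cells without the 29, and in the Cd4 class the 49 stood against 34.0 (ratio 1.44). In Cd8-identity Tdp cells 2 stood against 3.52 expected, and at this depth no excess or lack could be detected there or in Cd4-identity Tdp cells. All cells with all 4 cytokines lay in the single classes, 3 in the Cd8 class and 2 in the Cd4 class.

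Cells with many UMIs of a cytokine held another one most often. Another of the 4 was found in 17.8% of cells without Ifng (16.7 to 18.9), in 23.3% of those with 1 Ifng UMI, in 30.0% of those with 2 to 4 and in 67.4% of those with 5 or more (29 of 43, 51.5 to 80.9). For Tnf the shares were 19.9% at 0, 29.4% at 1, 28.2% at 2 to 4 and 76.2% at 5 or more (16 of 21). All 7 cells with 5 or more Il2 UMIs held another of the 4 (59.0 to 100). Median depth moves with these groups, at 3732, 4368, 5454 and 7634 UMIs for the 4 Ifng groups, and its part in these shares was not tested.

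Among pairs, Csf2 and Penk were found together most often for their rarity. They shared 13 cells, against 1.79 expected within those depth groups, which is 20% of the Csf2 cells and 12.4% of the Penk cells, and 6 cells against 0.325 after thinning. Of the 13 cells, 6 lay in the Cd8 class and 7 in the Cd4 class. Among those 6 were 5 of the 29 Cd8 class cells with Cd4 UMIs only. Ifng and Tnf shared 174 cells against 137 expected (52 against 29.9 thinned), Ifng and Csf2 25 against 13.4 (9 against 2.75 thinned), and Tnf and Il2 69 against 48.8 (21 against 12.2 thinned). Il2 and Penk shared 5 cells against 6.37 expected, with 4 against 1.84 in the Cd8 class and 0 against 4.20 in the Cd4 class. Tnf and Penk shared 19 cells against 17.0 expected, and 2 against 3.54 thinned.

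**Figure D5:**
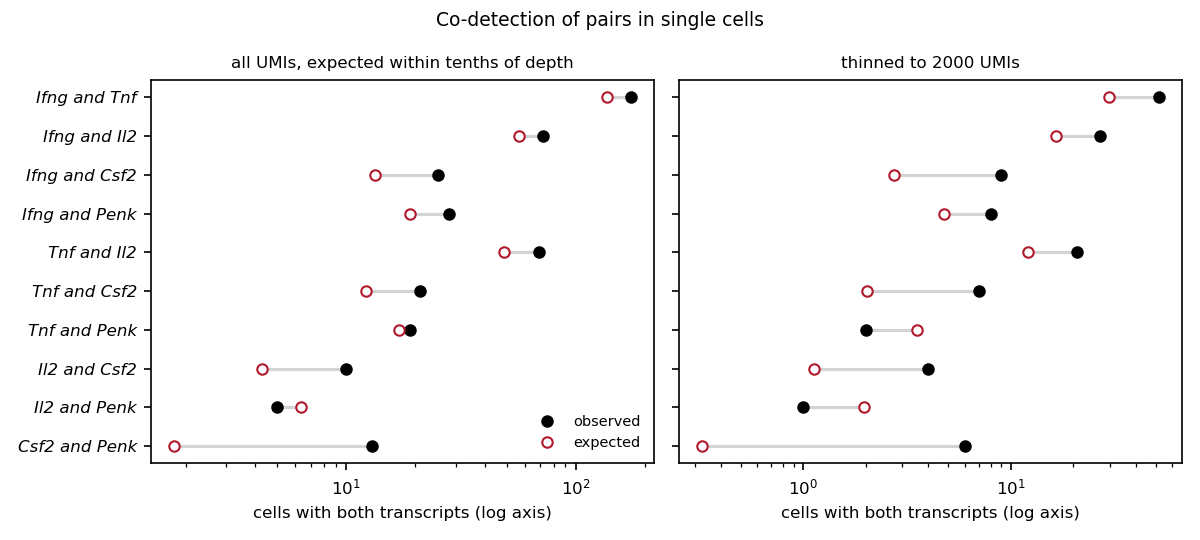
Cells holding both transcripts of each pair (horizontal axis, log scale), observed (filled) and expected if the genes were found independently (open), from all UMIs with the expectation taken within 10 groups of cells by depth (left) and after thinning each cell to 2000 UMIs (right). Csf2 and Penk show the widest gap (13 cells against 1.79, and 6 against 0.325 thinned), while Il2 and Penk were found together in 5 cells against 6.37 expected.

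States of the cells were marked by single genes, with member shares read after thinning. Nr4a1 is a gene switched on early by T cell receptor signals. In the 158 Cd8 class cells with Nr4a1 (5.89% of the class), Ifng was found in 19.1% (13.2 to 26.2), against 7.50% of the rest (6.46 to 8.64), Tnf in 12.5% (7.70 to 18.8) against 4.39% (3.59 to 5.30), and Csf2 in 3.95% (1.46 to 8.39) against 0.468% (0.234 to 0.837). Those 158 cells held 65.3% of the Ifng UMIs of the class, 61.1% of Il2 and 81.8% of Csf2, but 11.9% of Penk. Much of this lay in few cells, since the 3 highest of them held 46.0% of the Ifng UMIs of the class, 50.3% of Il2 and 77.2% of Csf2. Without the 29 cells with Cd4 UMIs only, Ifng (17.2%, 11.5 to 24.4, against 7.48%) and Tnf (10.3%, 5.91 to 16.5, against 4.43%) kept apart, while the intervals for Csf2 overlapped (2.07%, 0.429 to 5.93, against 0.301%, 0.121 to 0.619). In the 109 Cd4 class cells with Nr4a1, Tnf was found in 18.3% (11.4 to 27.1) against 8.13% (7.0 to 9.37), while Ifng, at 10.6% against 9.01%, had overlapping intervals.

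Foxp3 marked a different pattern in the Cd4 class. In its 555 cells with Foxp3 (22.4%), Ifng was found in 4.55% (2.87 to 6.80), against 10.3% of the rest (8.95 to 11.9), and Il2 in 0.620% (0.128 to 1.80), against 4.71% (3.77 to 5.81). Penk was found in 3.51% of them (2.06 to 5.56), against 1.02% (0.607 to 1.61), and they held 66.0% of the Penk UMIs of the class. Most of that 66.0% lay in few cells, since single Foxp3 cells held 96, 55, 22, 13 and 10 of the 374 Penk UMIs. By level, Il2 stood at 42.6 CPM in Foxp3 cells against 19.6 CPM in the rest, but 92 of the 265 Il2 UMIs of the class lay in 1 cell with 5 Foxp3 UMIs and 2 Trbv genes. Tnf intervals overlapped (6.61% against 9.14%).

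A further state was marked by Pdcd1, the gene of the inhibitory receptor PD-1. In the Cd4 class Ifng was found in 15.1% of cells with Pdcd1 (12.1 to 18.6), against 7.40% of cells without (6.22 to 8.73), and Penk in 4.50% (2.84 to 6.73) against 0.740% (0.395 to 1.26). In the Cd8 class the Ifng shares were 9.63% with Pdcd1 (7.98 to 11.5) and 7.0% without (5.70 to 8.48), and these overlapped. Il2 was lower in cells with the granzyme gene Gzmb, at 2.04% (1.21 to 3.21) against 4.33% (3.39 to 5.43) in the Cd8 class and 2.11% (1.23 to 3.35) against 4.80% (3.75 to 6.03) in the Cd4 class. Without the 29 cells the Gzmb intervals of the Cd8 class overlapped (2.05%, 1.22 to 3.23, against 4.14%, 3.21 to 5.23). In the Cd8 class, cells with Cd40lg held Il2 in 10.7% (7.07 to 15.4) against 2.78% (2.14 to 3.54), and without the 29 cells in 10.1% (6.43 to 14.9) against 2.75%. Cycling cells of the Cd8 class and those with the interferon-induced gene Ifit3 held Ifng in 7% and 7.87%, with intervals that overlapped those of the other cells.

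Other genes of the pathway were read in the 37 of 39 high cells that could be thinned, against 5106 other cells. Intervals did not overlap, with the high cells above, for 2.47% of 14308 genes, and with the high cells below for 1.07%. Of 26 listed transcription factors of T cell activation and cytokine expression, 11 were above and none below. Nr4a1 was found in 40.5% of high cells (24.8 to 57.9) against 2.51%, Egr2 in 13.5% against 0.803%, Bhlhe40 in 48.6% against 17.9%, Batf in 40.5% against 17.0%, and Rel, an NF-kappa B subunit, in 32.4% against 8.91%. Of 8 chemokines 4 were above (Ccl1, Ccl3, Ccl4 and Xcl1, with Ccl3 in 35.1% against 2.29%), and Ccl5 was below, at 43.2% (27.1 to 60.5) against 64.2%. From all UMIs, Ccl5 was found in 90.4% of Cd8 class cells with Cd8 UMIs only and in 31.0% of the 29 cells. The 39 high cells held 8 of the first kind and 9 of the second. The part of this make-up in the Ccl5 shares was not tested. Of 22 other cytokines 7 were above and Ltb, which encodes lymphotoxin beta, was below, with Lta in 29.7% against 5.11% and Il10, of an anti-inflammatory cytokine, in 10.8% against 0.235%. Of 10 receptor genes Il2ra, the alpha chain of the IL-2 receptor, was above at 43.2% (27.1 to 60.5) against 7.78%, as was Il2rb, while Ifngr1 was below at 29.7% (15.9 to 47.0) against 68.6%. Of 15 interferon gamma response genes none was above or below. Of 10 factors that control cytokine mRNA decay, Zfp36l2 was below at 21.6% against 41.6% and Hnrnpd above at 54.1% against 32.5%.

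The same lists were also read across classes. In Cd8-identity Tdp against the Cd8 class, 6 of 8 chemokine genes were lower and none higher, where 4.6% of all genes were lower and 2.07% higher, with a median log2 ratio of -1.13 against 0.016 over all genes, Ccl1 at 2.13 CPM against 45.9 CPM and Xcl1 at 24.5 CPM against 93.2 CPM. Much of the Cd8 class level lay in its high cells. Without all cells with 10 or more UMIs of any of the 5 genes, 4 chemokine genes were lower, with Xcl1 at 22.0 against 45.6 CPM, and Ccl1 was not called at 2.14 against 2.17 CPM. Macrophage and monocyte genes moved with this comparison (404 against 1125 CPM), and 5 of 6 chemokine genes were lower once cells with UMIs of other cell types were left out. Of 16 other cytokines 6 were lower and none higher (median -0.10). Without the 29 cells none of 13 was called (median 0.096), and without the high cells 2 of 13 were lower and none higher (median 0.072). With all cells, none of 10 decay factors was called. Of the 26 listed transcription factors 3 were lower and none higher (median -0.21), with Nr4a1 at 15.4 CPM against 32.2 CPM (25.7 CPM without the 29 cells). In Cd4-identity Tdp against the Cd4 class, 3 of 8 chemokine genes were higher and 3 lower, where 2.2% and 2.92% of all genes were, with Ccl3 at 290 CPM against 48.4 CPM and Ccl4 at 645 CPM against 127 CPM, and the cell with 46 Ifng UMIs held 162 Ccl3 UMIs and 357 Ccl4 UMIs. Without the high cells both were lower in Cd4-identity Tdp, Ccl3 at 7.20 against 29.7 CPM and Ccl4 at 18 against 75.1 CPM. None of 24 of the listed transcription factors was called there (median -0.017 against -0.026).

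Between the Tdp classes, 2 of 6 chemokine genes were higher in Cd8-identity cells and 3 lower, where 3.96% and 3.09% of all genes were. Ccl3 and Ccl4 were among the lower ones, and the Cd4-identity cell just named held 162 of the 166 Ccl3 UMIs and 357 of the 369 Ccl4 UMIs there. Without the high cells Ccl4 was higher in Cd8-identity Tdp (85.8 against 18 CPM) and Ccl3 was not called. Eomes, a T-box factor, stood at 40.9 CPM in Cd8-identity Tdp against 10.5 CPM in Cd4-identity Tdp. Between the single classes, 4 of 8 chemokine genes were higher in the Cd8 class and none lower (median 0.60 against -0.012), where 8.21% of all genes were higher and 6.58% lower, with Ccl5 at 7700 CPM against 1563 CPM. Ccl1, not called there, was lower in the Cd8 class without the 29 cells (11.2 against 33.7 CPM). Of 19 other cytokines 2 were higher and 11 lower there (median -0.61), with Cd40lg at 27.4 CPM in the Cd8 class against 181 CPM in the Cd4 class, and Il2ra stood at 19.5 CPM against 128 CPM. Csf2rb (28.2 against 9.35 CPM), the beta chain of the GM-CSF receptor, and Csf2rb2 (11.2 against 2.99 CPM), in mice a beta subunit of the IL-3 receptor, were higher in the Cd8 class, which also held 97 of the 100 macrophage-marker cells. With cells that held UMIs of other cell types left out they stood at 3.68 against 0.311 CPM and 2.33 against 0.932 CPM. None of 10 decay factors was called.

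Across the 5564 cells the genes most like Ifng in pattern were Ccl3 (Pearson r of depth-scaled log2 counts of 0.26) and Ccl4 (0.22), among genes found in at least 50 cells. For Csf2 they were Cd70 (0.36), Ccl1 (0.36), Lad1 (0.21), Gzmc (0.21) and Bcat1 (0.21), and for Penk Cd70 (0.27) and Bcat1 (0.20). No gene reached 0.2 for Tnf or Il2. Cells share the library and differ in depth, and without the 39 high cells the r of each named pair lay at or below 0.15, the highest being that of Csf2 with Ccl1, so these values rest on those cells.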

How the data were processed

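Gene expression was measured in 1 droplet library (5′ kit) of pooled T cells. The deposited expression table consists of raw UMI counts for each gene in each cell, and a deposited annotation gives each cell's number, identity and class. Cell Ranger 3.1.0, Seurat 3.2.3 and mm10 are named, per the submitters' processing notes, with no role. How cells were filtered, doublets treated or classes called were matters not given in the sources used here. Hashtag and T cell receptor libraries were not analysed here, and the antibody table was not used.

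UMIs were summed per class and scaled to CPM without 108 receptor genes of T and B cells (0.324% of UMIs). Cells had at least 501 UMIs each, with a median of 3869. Intervals are exact at 95%: Clopper-Pearson for shares, Poisson for levels, conditional binomial for ratios. They cover counting error only. Log2 ratios used a pseudocount of 5 CPM. Shares at equal depth used 5143 cells thinned to 2000 UMIs. Expected co-detection multiplies the genes' shares within 10 groups of cells by depth. Doublets were not removed. Cells with 2 Trbv genes were left out as an alternative, with other scaling (TMM, edgeR 4.0.16), filters, cell kinds, numbers and highest cells.

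The genes and lists were chosen with earlier results of these data known. Genes named beside the 5 are the 5 most correlated with each (r at least 0.2) and the 2 highest and 2 lowest of each list in a comparison; single cells and list genes in the high cells were chosen after their values were seen. Promoters are RefSeq's (GRCm38.p6). Python 3.11.15, scipy 1.17.1 and pandas 2.3.3 were used. 1 further cell state is not reported here.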

Additional observations from a re-analysis of the deposited data

Results flagged for a closer look

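Penk differed in opposite directions in the Tdp cells of the 2 identities. Its log2 ratio was -1.17 for Cd8-identity Tdp over the Cd8 class and 2.66 for Cd4-identity Tdp over the Cd4 class, and the difference between them was not tested. All 142 Penk UMIs of Cd4-identity Tdp lay in 1 cell, and 29 of the 38 of Cd8-identity Tdp in 1 cell. Without the 29 Cd8 class cells with Cd4 UMIs only, the first ratio was 1.32, and without the highest cell of each class the second was -2.63, so each turned sign there.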

How the results depend on the processing

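Of the log2 ratios recomputed under the alternatives, 285 had a fold within the counting interval of the reported one, 93 lay outside it and 22 of called genes turned sign. No paired analysis was possible because all cells come from 1 library. For Cd8-identity Tdp over the Cd8 class, where 3 genes were called, thinning called 1 (Csf2 lower), and leaving out cells with UMIs of other types, number 3 or number 4 called 5 each. Penk (-1.17) turned to 0.18 without number 1. For Cd4-identity Tdp over the Cd4 class, where 4 were called, thinning called 2, as did leaving out cycling cells, cells with 2 Trbv genes, number 1 or the highest cell. Ifng (0.87) turned to -0.45 without number 1 and -0.53 without the highest cell, and Penk (2.66) to -2.55 without cycling cells, -3.08 without cells with 2 Trbv genes, -3.10 without number 4 and -2.63 without the highest cell. For Cd8-identity Tdp against Cd4-identity Tdp, where 2 were called, thinning called 1 and leaving out the highest cell 0. Ifng (-0.73) turned to 0.70 without number 1 and 0.60 without the highest cell, and Penk (-3.33) to 2.79 without cycling cells, 2.62 without cells with 2 Trbv genes, 2.76 without number 4 and 0.97 without the highest cell. For the Cd8 class against the Cd4 class, where 2 were called, leaving out Foxp3 cells, cells of other types or number 3 called 4 each, and leaving out number 4 called 1 (Csf2 higher).

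Alternatives chosen after seeing the data left out the 5 highest cells of a gene in each class, the 29 Cd8 class cells with Cd4 UMIs only, or all single-class cells without their own co-receptor alone. Without the 5 highest cells, the Tdp classes differed in 1 called gene (Ifng higher, 0.98, with Penk at 0.15), Ifng stood at -1.03 and Penk at -2.07 for Cd4-identity Tdp over the Cd4 class, and Ifng at -0.15 and Csf2 at -0.016 for the Cd8 class against the Cd4 class. Without the 29 cells Csf2 there stood at -0.19, and Penk for Cd8-identity Tdp over the Cd8 class at 1.32, or 1.23 with own co-receptors only. The share of cells with 2 or more cytokines (5.36%) was 1.83% thinned, 0.881% at 2 UMIs of each and 4.68% without cells with 2 Trbv genes, and its ratio to expectation (1.22) was 1.53 thinned and 2.52 at 2 UMIs. In the other 4 alternatives that ratio stayed within the counting interval of the reported one. These included leaving out the high cells, also chosen after seeing the data, or the cells with 2 Trbv genes. The causes of these changes were not tested. With 93 cells, Cd4-identity Tdp shares have wide intervals.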

Other observations

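In 57 cells with 3 or more markers of natural killer cells (median 5618 UMIs), of which 47 lay in the Cd8 class, Ifng was found in 35.1% (22.9 to 48.9), Tnf in 19.3%, Il2 in 5.26%, Csf2 in 5.26% and Penk in 0, which allows a share of up to 5.26%. In the Cd4 class, the 738 cells with no UMI of Cd4, Cd8a or Cd8b1 (29.8% of the class) held 54.8% of its Penk UMIs, and 4 of these cells held 96, 55, 22 and 10 of them. Penk was found in 0.321% of the Cd4 class cells with the interferon-induced gene Ifit3 after thinning (0.0388 to 1.15), against 2.04% of those without (1.41 to 2.85).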
